A study of Vitis rotundifolia with 36 samples.

Results

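In the muscadine grape, Vitis rotundifolia, 60 gene models set the cultivar Supreme apart from the cultivars Alachua and Granny Val in every layer of the berry. They fall into a set of 30 that was higher in Supreme and a set of 30 that was lower, out of 26394 gene models listed. Levels are in CPM, the usual scaling of a gene model's count by the sum of all gene model counts in its library. For the high set, the lowest of the 4 layer means of Supreme had to reach 2 CPM. It was divided by the highest of the 8 layer means of Alachua and Granny Val, with 0.1 CPM added to both, and the 30 largest ratios were taken. For the low set, the lowest of the 8 layer means of Alachua and Granny Val had to reach 2 CPM and was divided in the same way by the highest layer mean of Supreme. Because these levels chose the members, the difference between Supreme and the other cultivars is described here without a test.

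RNA was sequenced from mature berries with no treatment, from Supreme, which has thin skin and purple fruit, from Alachua, with thick skin and purple fruit, and from Granny Val, with skin of intermediate thickness and green fruit. Each berry was dissected into 4 layers numbered from the outside inwards, and each cultivar and layer had 3 libraries, so that 12 libraries of Supreme stand against 12 of Alachua and 12 of Granny Val. The protocol names the layers epidermis with cuticle, hypodermis, mesocarp and endocarp, while the tags of the samples give Cuticle, Exocarp, Endocarp and, for layer 4, Seed, and only layer numbers are used. The study asked which genes go with skin thickness and texture, firmness and the slipping of the skin.

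Muscadines are grown as named cultivars that are propagated vegetatively, so all vines of a cultivar share a genotype. Genes can differ between cultivars of a crop in how strongly they are transcribed, in their sequence and in whether a genome carries them at all. Counts per gene model do not tell these apart, and none of them was tested here. In bulk tissue, fewer cells of a type and less RNA per cell cannot be told apart either. The identifiers hold a chromosome and a running number, and 0 of 26394 could be found in the RefSeq gene table that was used. Members are therefore named by identifier, without a function, and the dissected layers could not be checked against tissue markers.

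Totals ran from 19057538 to 61782400 counts per library, and no pair of libraries was identical (0 pairs). Library names were of 2 kinds, 25 with a number and 11 without. In Supreme those without a number were replicate 1 of layer 3 and replicates 2 and 3 of layer 4. There the kind of name cannot be fully told apart from the inner layers. In Granny Val those without a number were replicates 1 and 2 of layers 2 and 3 and replicate 3 of layer 4. In layer scores built from the Granny Val libraries, 6 of the 24 libraries of Supreme and Alachua lay nearest to another layer than their label. Of Supreme these were replicate 1 of layer 1 and of layer 2. Of Alachua they were replicate 3 of layer 2, replicate 1 of layer 3 and replicates 2 and 3 of layer 4. Counts of members that change without these 6 libraries are given with that value. Without them, the rule kept 24 of the 30 high members and 19 of the 30 low members.

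The high set held 12 gene models with a ratio of at least 5 and 18 below it. By the same measure, Alachua had 26 gene models that were at least 5 times higher in all its layers than in any layer of the other cultivars, and Granny Val had 6. The 30th ratio was 1.73 in Supreme, against 3.39 in Alachua and 1.42 in Granny Val. In the low direction, 7 gene models reached a ratio of 5 for Supreme, against 8 for Alachua and 11 for Granny Val, and the 30th ratio was 1.16, against 1.77 and 1.84. The lower part of the low set therefore differed little from the gene models just outside it. The last high member, evm.model.chr16.353, had a lowest Supreme mean of 13.1 CPM and a highest mean elsewhere of 7.55 CPM. The first gene model left out, evm.model.chr12.1756, had 5.58 and 3.30 CPM and a ratio of 1.67. At the edge of the low set, evm.model.chr19.52 had a highest Supreme mean of 2.28 CPM and a lowest mean elsewhere of 2.66 CPM. Just outside, evm.model.chr17.1180 had 17.1 and 19.4 CPM and a ratio of 1.13.

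Levels in the high set had a median over its members of 12.3 CPM in Supreme, 0.966 CPM in Alachua and 0.900 CPM in Granny Val. Every Supreme library was above every other library for 16 of the 30 members, against 0.0886% of all gene models with a count. The rule used these levels, so the comparison is a description. All 12 members with a ratio of at least 5 were among the 16. The other 4 were evm.model.chr2.1298, evm.model.chr10.1132, evm.model.chr10.1133 and evm.model.chr5.1618. For the remaining 14 members, at least 1 library of Supreme overlapped with a library of another cultivar.

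**Figure D1:**
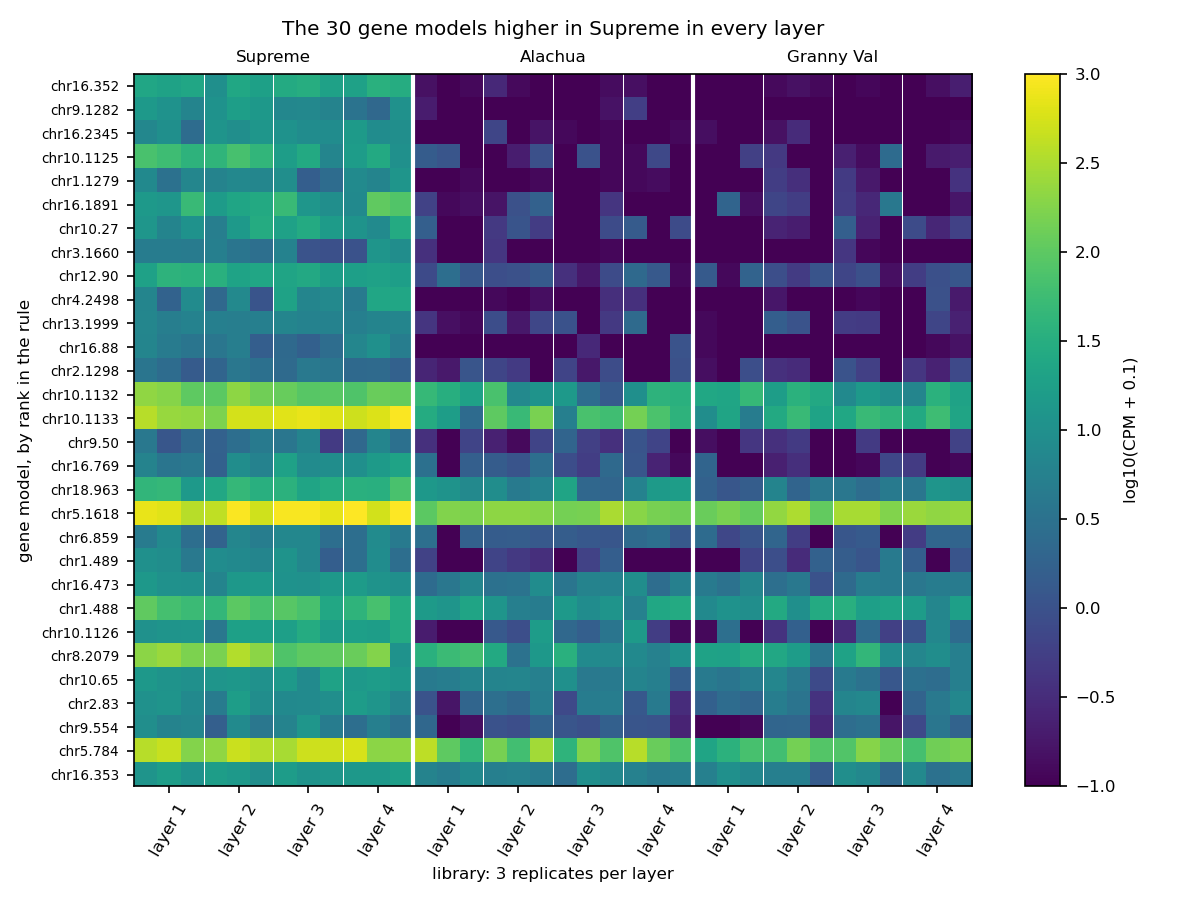
Heat map of the 30 gene models of the high set (rows, by the ratio of the rule, with evm.model. dropped from each name) in 36 libraries (columns: Supreme, Alachua and Granny Val, each with layers 1 to 4 and 3 replicates per layer). The colour is log10 of CPM plus 0.1. The 12 upper rows are lighter across all Supreme libraries than elsewhere, where most cells are near the dark end. The lower rows differ by smaller steps, and the brightest rows, such as chr5.1618 and chr10.1133, are among them.

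The largest ratio, 102, belonged to evm.model.chr16.352 on chromosome 16. Its lowest, median and highest levels were 9.85, 23.2 and 34.0 CPM in the 12 Supreme libraries, against 0, 0.00873 and 0.194 CPM in the 24 other libraries. In layers 1 to 4 of Supreme it averaged 22.1 ± 1.98, 17.7 ± 7.33, 25.9 ± 5.79 and 27.6 ± 7.47 CPM (SD, n = 3 each). Thus every Supreme layer held it at a similar level, and 12 of the other 24 libraries had no count of it. Pooled over libraries, 13984 counts in Supreme stood against 16 in Alachua and 13 in Granny Val, which is 888-fold higher in Supreme per total count. The next gene model by number, evm.model.chr16.353, is the last member of the set. It had 9.42, 13.5 and 17.5 CPM (lowest, median, highest) in Supreme and 1.31, 5.34 and 10.2 CPM elsewhere, a pooled fold of 2.45, so that adjacent members differed from the other cultivars to very different degrees.

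Another 5 members were at or close to 0 outside Supreme. For evm.model.chr9.1282 the lowest, median and highest levels were 2.17, 8.81 and 17.6 CPM in Supreme. Elsewhere 21 of the 24 libraries had no count, the highest had 0.460 CPM, and Granny Val had 0 counts in all, so that Supreme was at least 1610-fold higher than Granny Val (against a floor of 3 counts over its 12 libraries). Against Alachua, with 26 counts, it was 180-fold higher. For evm.model.chr16.2345 the levels were 2.49, 9.34 and 15.2 CPM in Supreme and at most 0.582 CPM elsewhere, a pooled fold of 221. For evm.model.chr1.1279 they were 1.45, 6.74 and 12.1 CPM in Supreme and at most 0.431 CPM elsewhere, a pooled fold of 106. These members were therefore present in every Supreme library, and most libraries of Alachua and Granny Val held none or a trace. Weaker levels were found for evm.model.chr3.1660 with 0.861, 4.55 and 12.2 CPM in Supreme against at most 0.331 CPM, and evm.model.chr16.88 with 1.45, 4.04 and 9.91 CPM against at most 0.973 CPM.

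Higher levels were found for evm.model.chr10.1125 and evm.model.chr16.1891. The first had 6.40, 32.7 and 70.6 CPM (lowest, median, highest) in Supreme and at most 2.41 CPM elsewhere, a pooled fold of 106. In Supreme it averaged 55.1 ± 16.3, 50.7 ± 15.2, 16.5 ± 9.98 and 17.9 ± 8.66 CPM in layers 1 to 4 (SD, n = 3 each), so its means were higher in the outer layers. The second had 7.75, 19.2 and 106 CPM in Supreme and at most 3.91 CPM elsewhere, a pooled fold of 85.2. Its layer means in Supreme were 26.1 ± 22.1, 21.9 ± 5.74, 24.4 ± 23.5 and 65.5 ± 51.4 CPM, where the spread between replicates was as large as the differences between layers. The Supreme libraries without a number in their names had 51.5, 106 and 82.7 CPM. The other libraries of layers 3 and 4 had 12.4, 9.43 and 7.75 CPM, while layer 1 replicate 3, with a number, had 51.6 CPM. For evm.model.chr10.27 the Supreme levels were 5.06, 13.3 and 29.0 CPM against at most 1.52 CPM elsewhere, a pooled fold of 44.8.

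The remaining members with a ratio of at least 5 were less alike. For evm.model.chr12.90 the Supreme libraries had 16.6, 21 and 38.8 CPM, and it had a count in every other library as well, at 0.0216 to 2.69 CPM. For evm.model.chr4.2498 they had 0.979, 7.05 and 23.5 CPM against at most 0.867 CPM, so the groups came close without touching. The most even of the set was evm.model.chr13.1999, with 4.95, 5.80 and 6.75 CPM in Supreme and at most 2.32 CPM elsewhere. Its coefficient of variation over the 12 Supreme libraries was 11.3%, the lowest among the 30, whose median was 43.7% and whose highest was 93.0%.

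Trace counts outside Supreme were spread over libraries. Summed over the 12 members with a ratio of at least 5, the 24 libraries of Alachua and Granny Val had between 1.00 and 6.66 CPM, against a mean of 182 CPM in Supreme. Each of these libraries held counts of 2 to 11 of the 12 members. The source of these traces was not tested.

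The most abundant members of the high set differed from the other cultivars by smaller factors. The highest level was that of evm.model.chr5.1618, at 729 ± 235 CPM in Supreme, 178 ± 53.3 CPM in Alachua and 211 ± 76.3 CPM in Granny Val (SD, n = 12 each). Its 12 Supreme libraries lay between 371 and 1049 CPM and the others between 98.7 and 327 CPM, without overlap. Next came evm.model.chr10.1133, at 515 ± 233 CPM in Supreme, 62.6 ± 50.8 CPM in Alachua and 29.7 ± 17.0 CPM in Granny Val, a pooled fold of 11.4. Its Supreme libraries ran from 163 to 963 CPM and the others from 2.39 to 155 CPM, so that the highest Alachua library came near the lowest of Supreme.

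The layer contrasts inside Supreme were fitted with edgeR over all 19241 gene models that passed the filter on low counts. All 30 high members passed it. The rule ranked them by the lowest Supreme layer mean, which favours gene models that are even across the layers, so the counts of members called are a description and nothing is read from their distance to the background. A gene model was called at an adjusted p under 0.05 and a change of at least 2-fold. Between layers 1 and 2 and layers 3 and 4 of Supreme, 0 of the 30 members were called, against 16.1% of all gene models (9.59% higher and 6.5% lower in the outer layers), and 1 member (of all gene models 34.5%) had an unadjusted p under 0.05. It was evm.model.chr8.2079, with 203 ± 43.6, 233 ± 96.0, 95.2 ± 14.6 and 104 ± 86.7 CPM in layers 1 to 4 (SD, n = 3 each) and a log2 fold change of 1.15 (SE 0.52, adjusted p = 0.115). When only the Supreme groups entered the edgeR fit, 2 of the 30 were called, while DESeq2 called 0, against 14.9% of all gene models with a count. The median log2 difference over the members was -0.03, and over all gene models it was -0.01. Between layers 1 and 2 of Supreme, edgeR called 0 of the 30 members and 0 of all gene models (background 0%), with 488 of all gene models and 0 members at an unadjusted p under 0.05. DESeq2 called 0 members there and 57 gene models in all (0.253%). Replicate 1 of each of these layers scored nearest to the other layer. In Alachua and Granny Val the same contrast called 8.39% of all gene models with edgeR. The lack of calls therefore does not show that layers 1 and 2 of Supreme were alike.

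Layer means inside Supreme still varied for single members. The highest of the 4 layer means was 1.69 times the lowest in the median member, with a range of 1.07 for the most even to 4.77 for evm.model.chr4.2498. Layer 4 had the highest mean for 15 of the 30 members, layer 3 for 7, layer 1 for 5 and layer 2 for 3. These counts, too, are given as a description. For evm.model.chr4.2498 the Supreme libraries without a number in their names had 20.3, 22.9 and 23.5 CPM. The other libraries of layers 3 and 4 had 6.61, 7.62 and 4.17 CPM. In the same libraries evm.model.chr3.1660 had 5.87, 12.2 and 8.92 CPM against 0.967, 0.861 and 0.925 CPM. For evm.model.chr16.769 they had 19.3, 15.3 and 20.6 CPM against 8.26, 9.16 and 9.88 CPM. Not all members followed the names, as evm.model.chr12.90 had 21.4, 19.4 and 17.3 CPM against 26.3, 16.6 and 18.1 CPM. These members are examples and not a count over the set. What the names stand for was not tested.

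The low set was more uneven. It held 7 members with a ratio of at least 5 and 23 below it, and 21 of the 30 had a ratio under 2. Median levels over the members were 2.21 CPM in Supreme, 14.0 CPM in Alachua and 16.8 CPM in Granny Val. Every Supreme library lay below every other library for 8 of the 30 members, against 0.0487% of the gene models with a count. They were the 7 with a ratio of at least 5 and evm.model.chr1.1443. The rule used these levels here as well, so this comparison too is a description.

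**Figure D2:**
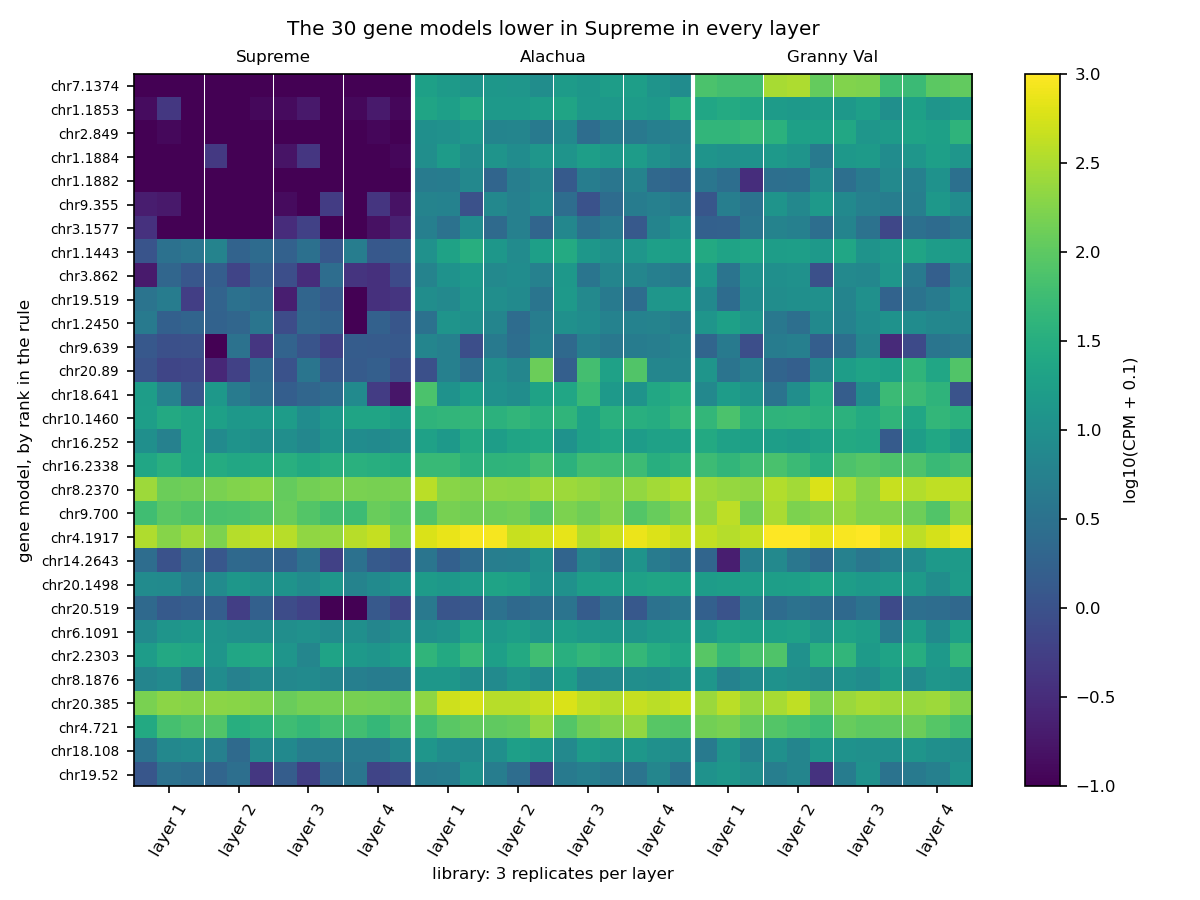
Heat map of the 30 gene models of the low set (rows, by the ratio of the rule, with evm.model. dropped from each name) in 36 libraries (columns: Supreme, Alachua and Granny Val, each with layers 1 to 4 and 3 replicates per layer). The colour is log10 of CPM plus 0.1. The 7 upper rows are dark in Supreme, with 2 of them at 0 in all 12 libraries, and the lower rows differ by shades.

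No read was counted in any Supreme library for evm.model.chr7.1374 on chromosome 7 and evm.model.chr1.1882 on chromosome 1. The first had 0 CPM in all 12 Supreme libraries, between 8.87 and 18.5 CPM in Alachua and between 53.5 and 327 CPM in Granny Val. It was at least 13792-fold lower in Supreme than in the 24 other libraries together, against a floor of 3 counts over the 12 Supreme libraries. For evm.model.chr1.1882 the Supreme libraries also had 0 CPM, and the others had 0.237, 4.07 and 10.7 CPM (lowest, median, highest), so that it was at least 828-fold lower. Every library of Alachua and Granny Val had counts of both.

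The other 5 members with a ratio of at least 5 had a few counts in Supreme. For evm.model.chr2.849, 2 of the 12 Supreme libraries had 1 count each and the others none. Alachua had 6.69 ± 3.20 CPM and Granny Val 28.3 ± 12.8 CPM (SD, n = 12 each). The pooled ratio of the other libraries to Supreme was 5149, with a counting interval of 1425 to 42517 at 95%. For evm.model.chr1.1853 the Supreme libraries had 0, 0.0210 and 0.342 CPM (lowest, median, highest), against 9.80, 15.6 and 29.5 CPM, and it was 313-fold higher in the others. For evm.model.chr1.1884 they had at most 0.357 CPM against 4.16, 11.8 and 18 CPM, 217-fold higher in the others. In both, Alachua and Granny Val stood at nearly the same level. For evm.model.chr9.355 Supreme reached 0.419 CPM and the others had 0.889 to 14.0 CPM, a pooled fold of 63.2. For evm.model.chr3.1577 Supreme reached 0.483 CPM and the others had 0.614 to 10.9 CPM, a pooled fold of 38.8. Summed over all 7, Supreme libraries had between 0 and 0.901 CPM, against a mean of 134 CPM in the other libraries.

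In contrast to these, evm.model.chr1.1443 was read in every Supreme library, at 0.998, 2.07 and 5.98 CPM (lowest, median, highest), against 8.41, 17.0 and 32.6 CPM elsewhere, and was 7.46-fold higher in the others. The most abundant low members had small ratios. The highest was evm.model.chr4.1917, at 291 ± 104 CPM in Supreme, 625 ± 178 CPM in Alachua and 716 ± 296 CPM in Granny Val (SD, n = 12 each), followed by evm.model.chr20.385 at 163 ± 28.0, 426 ± 104 and 269 ± 72.4 CPM. For both, the ranges of single libraries overlapped between Supreme and the others. The last member, evm.model.chr19.52, had 0.347, 1.67 and 3.57 CPM in Supreme and 0.280, 4.83 and 12.8 CPM elsewhere, with wide overlap.

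**Figure D3:**
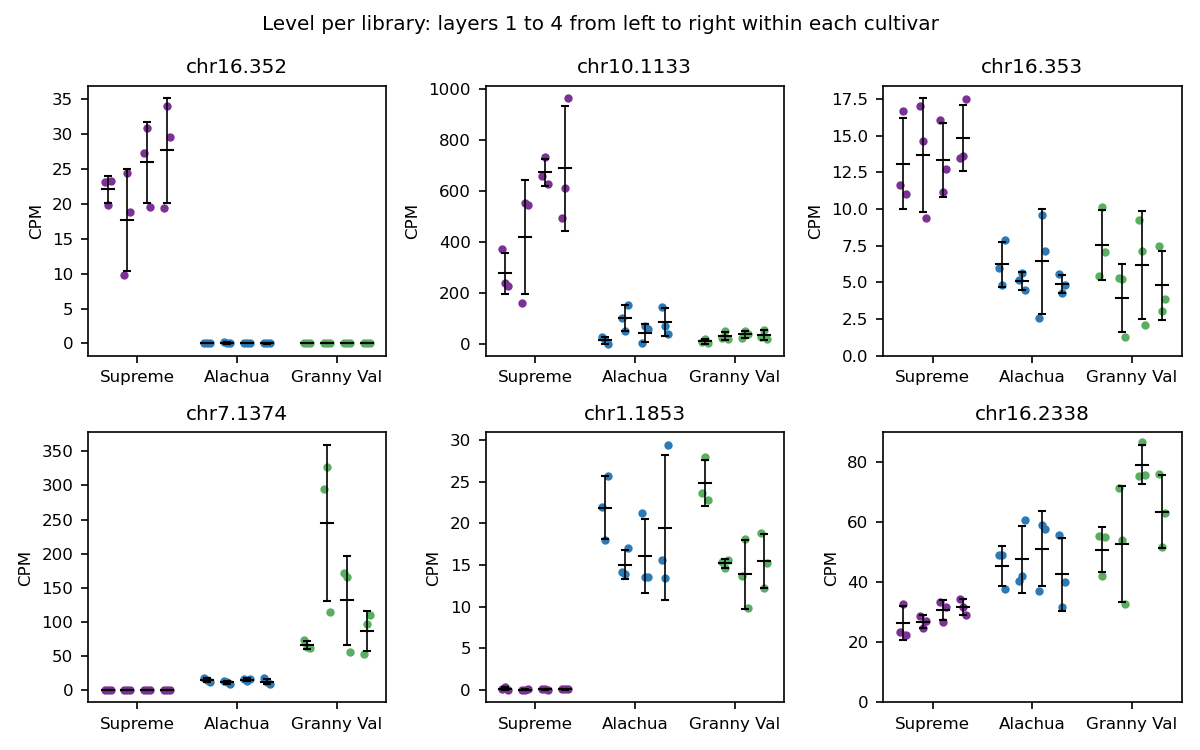
Level in CPM (vertical axis) of 3 high members (upper row) and 3 low members (lower row) in each library, with evm.model. dropped from each name. Points are libraries, horizontal bars the mean of 3 replicates and vertical bars the SD, for layers 1 to 4 from left to right within Supreme, Alachua and Granny Val. For chr16.352 and chr1.1853 the groups are far apart, and chr7.1374 is at 0 in Supreme and differs between Alachua and Granny Val.

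The contrast of Alachua and Granny Val was fitted with edgeR as well. The rule does not favour either cultivar, but it ranked low members by the lowest of their layer means and high members by the highest, which bears on how far apart the cultivars can lie, so nothing is read from the counts of members against the background. Among the 30 low members, all of which passed the filter, edgeR called 2 lower in Alachua and 0 higher, against a background of 10.7% in either direction (5.1% lower, 5.59% higher). For evm.model.chr7.1374 Alachua had 15.1 ± 3.23, 11.5 ± 2.15, 15.2 ± 1.99 and 12.5 ± 4.17 CPM in layers 1 to 4, and Granny Val had 66.3 ± 6.36, 245 ± 115, 131 ± 65.0 and 86.8 ± 29.6 CPM (SD, n = 3 each). All 12 Alachua libraries lay below all 12 Granny Val libraries, and the log2 fold change was -3.14 (SE 0.19, adjusted p = 4.6e-10, edgeR). This gene model thus had 3 separate levels in the 3 cultivars. For evm.model.chr2.849 the layer means were 11.3 ± 2.11, 5.70 ± 1.29, 4.86 ± 2.67 and 4.96 ± 0.835 CPM in Alachua and 44.7 ± 3.90, 24.6 ± 10.1, 17.5 ± 6.42 and 26.6 ± 12.0 CPM in Granny Val, a log2 fold change of -2.11 (SE 0.23, adjusted p = 7.5e-07, edgeR). The mean of Granny Val was higher in each layer. Both were called in all 44 other fits.

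Another 4 low members passed the adjusted threshold of edgeR with less than a 2-fold change. Higher in Alachua was evm.model.chr20.385, at a log2 fold change of 0.64 (adjusted p = 0.0036). Lower were evm.model.chr16.2338 at -0.42, evm.model.chr9.700 at -0.62 and evm.model.chr8.2370 at -0.48. Over the set, the mean of Alachua was above that of Granny Val for 15 members and below it for 15, and the median log2 fold change was -0.06, against 0.01 over all gene models.

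For the high set the same contrast concerns the low or residual levels outside Supreme. Alachua had the higher mean for 22 of the 30 members and Granny Val for 8. The median log2 fold change over the members was 0.46, against 0.01 over all gene models, of which 51.0% had the higher mean in Alachua. edgeR called 1 member higher and 1 lower, against the same background of 10.7%. DESeq2 called 3 higher and 2 lower, against its own background of 11.3% (6% higher, 5.31% lower). For evm.model.chr18.963 the layer means were 10.7 ± 3.10, 6.37 ± 2.46, 8.64 ± 11.5 and 12.5 ± 5.78 CPM in Alachua and 1.40 ± 0.294, 3.95 ± 2.27, 3.52 ± 0.857 and 8.54 ± 4.32 CPM in Granny Val (SD, n = 3 each), a log2 fold change of 1.34 (SE 0.34, adjusted p = 0.0049, edgeR). For evm.model.chr1.489 Alachua had 0 to 1.46 CPM and Granny Val 0 to 4.36 CPM, a fitted log2 fold change of -2.98 (SE 0.94, adjusted p = 0.024, edgeR), with 0 counts in Alachua layer 4. Neither was called without the 6 out-of-place libraries. The log2 fold change of the first was then 0.53 (adjusted p = 0.222), and that of the second stayed at -2.77 (adjusted p = 0.144). The first was also under 2-fold without Alachua layer 3 replicate 1 (log2 fold change 0.82). The second was not called with only the groups of the contrast (-2.95, adjusted p = 0.083), nor without Granny Val layer 1 replicate 3 (-1.44), which left both cultivars with a layer at 0 counts. For 5 of the 30 high members each cultivar had a layer with 0 counts in all 3 libraries, and the fitted mean over layers then gave a p close to 1 whatever the counts elsewhere, as it did for 2004 of all gene models.

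Layer contrasts of the low set were fitted in Alachua and Granny Val, averaged with equal weight. The rule ranked the low members by the lowest of these 8 layer means, which disfavours gene models with 1 low layer, so here too nothing is read from the counts against the background. Between layers 1 and 2 and layers 3 and 4, edgeR called 0 of the 30 members higher and 1 lower, against a background of 8.02% (4.03% higher, 3.99% lower). The called member, evm.model.chr20.89, had layer means of 3.00 ± 2.27, 46.9 ± 67.4, 28.2 ± 32.1 and 32.3 ± 44.2 CPM in Alachua and 6.97 ± 4.51, 3.28 ± 2.75, 18.5 ± 1.85 and 49.2 ± 30.8 CPM in Granny Val (SD, n = 3 each). In layers 2 to 4 of Alachua its SDs were above its means, and the log2 fold change was -1.97 (SE 0.56, adjusted p = 0.019, edgeR). In these layers the out-of-place libraries stood apart. Layer 2 replicate 3, nearest to the inner layers, had 125 CPM, against 9.35 and 6.67 CPM in its other replicates. Layer 3 replicate 1, nearest to layer 1, had 1.51 CPM, against 63.9 and 19.2 CPM. Layer 4 replicates 2 and 3, nearest to layer 2, had 6.80 and 6.71 CPM, against 83.3 CPM. The cause was not tested. Without Alachua layer 3 replicate 2 the log2 fold change was -1.61 (adjusted p = 0.0591), and without Alachua layer 4 replicate 1 it was -1.44 (adjusted p = 0.0832). These 2 libraries were not among those out of place, and of the 44 other fits only these 2 lost the call. Between layers 1 and 2, edgeR called 0 of the 30, against 8.39% of all gene models (4.91% higher and 3.48% lower in layer 1), with 5 members and 28.4% of all gene models at an unadjusted p under 0.05. DESeq2 called 0 members and 10.8% of all gene models. The lowest adjusted p there was that of evm.model.chr7.1374, at a log2 fold change of -0.83 (adjusted p = 0.037), under 2-fold. From layer 1 to layer 2 its mean went from 15.1 to 11.5 CPM in Alachua and from 66.3 to 245 CPM in Granny Val. In Granny Val, layer 2 replicates 1 and 2, without a number in their names, had 294 and 327 CPM. Replicate 3, with a number like all of layer 1, had 114 CPM. There the layers cannot be fully told apart from the kind of name. The difference between Alachua and Granny Val in the contrast of outer and inner layers was tested as an interaction added after the data were seen, and edgeR called 0 of the 30 (lowest adjusted p = 0.387, background 0.13%, of which 0.052% higher and 0.078% lower).

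**Figure D4:**
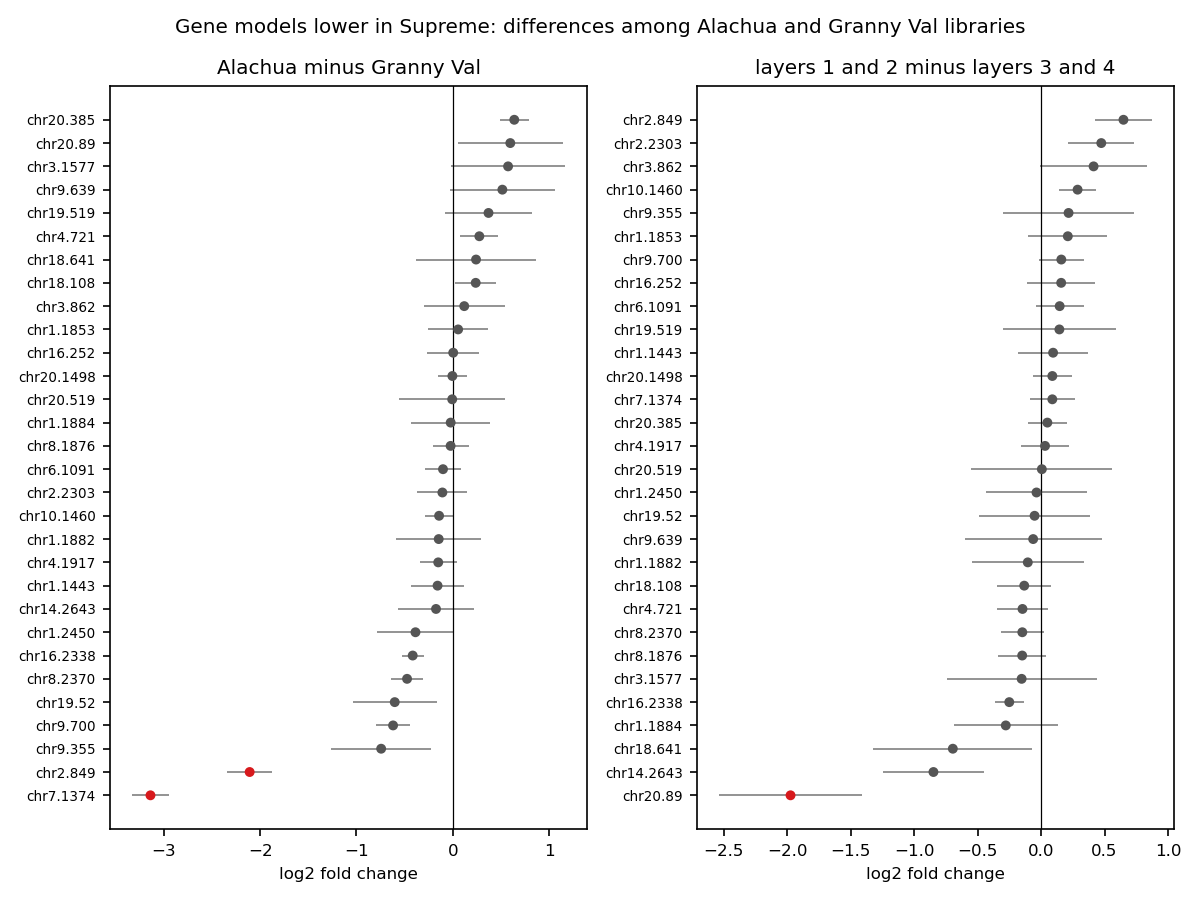
Fitted log2 fold changes (horizontal axis) with standard errors (bars) of the 30 low members (rows, sorted by value, with evm.model. dropped). The left panel is Alachua minus Granny Val over 4 layers and the right panel is layers 1 and 2 minus layers 3 and 4 in Alachua and Granny Val, and members called by edgeR are red. The 2 called members at the left end of the first panel, chr7.1374 and chr2.849, lie at -3.14 and -2.11, and most others lie close to 0.

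Some members lay close together, as far as the running numbers of the identifiers show, which have gaps. Within 10 running numbers of each other there were 10 pairs, which held 12 of the 60 members. On chromosome 10 lay 4 high members, evm.model.chr10.1125, evm.model.chr10.1126, evm.model.chr10.1132 and evm.model.chr10.1133. For evm.model.chr10.1132 the levels were 78.0, 116 and 220 CPM in Supreme (lowest, median, highest) against 1.28, 19.7 and 70.3 CPM elsewhere, and for evm.model.chr10.1126 the means were 16.7 ± 7.05 CPM in Supreme, 3.39 ± 5.74 CPM in Alachua and 1.50 ± 2.01 CPM in Granny Val (SD, n = 12 each). The stretch also held evm.model.chr10.1129, which is no member, at 1443 ± 692 CPM in Supreme, 794 ± 708 CPM in Alachua and 390 ± 232 CPM in Granny Val. Whether near-identical copies lie there was not tested. Reads without a unique position are not in the counts of gene models, so single levels in the stretch are uncertain.

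Other close pairs within a set were evm.model.chr1.488 with evm.model.chr1.489, evm.model.chr16.352 with evm.model.chr16.353, and, in the low set, evm.model.chr1.1882 with evm.model.chr1.1884. The low member evm.model.chr1.1853 lay 29 numbers before this last pair, with gene models between them that were read in Supreme, such as evm.model.chr1.1867 at 125 ± 36.7 CPM in Supreme, 89.3 ± 34.8 CPM in Alachua and 118 ± 38.0 CPM in Granny Val. Members of opposite sets lay 7 apart on chromosome 16, where evm.model.chr16.2345 was in the high set and evm.model.chr16.2338, at 28.9 ± 3.97 CPM in Supreme, 46.7 ± 9.84 CPM in Alachua and 61.5 ± 15.8 CPM in Granny Val, in the low set. Chromosome 16 held 7 of the 30 high members (23.3%) and 4.18% of the gene models with a count, and chromosome 10 held 6 (20%) and 5.00%. In the low set, chromosome 1 held 5 (16.7%) and 5.71%, and chromosome 20 held 4 (13.3%) and 3.34%. No test was made of these shares.

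**Figure D5:**
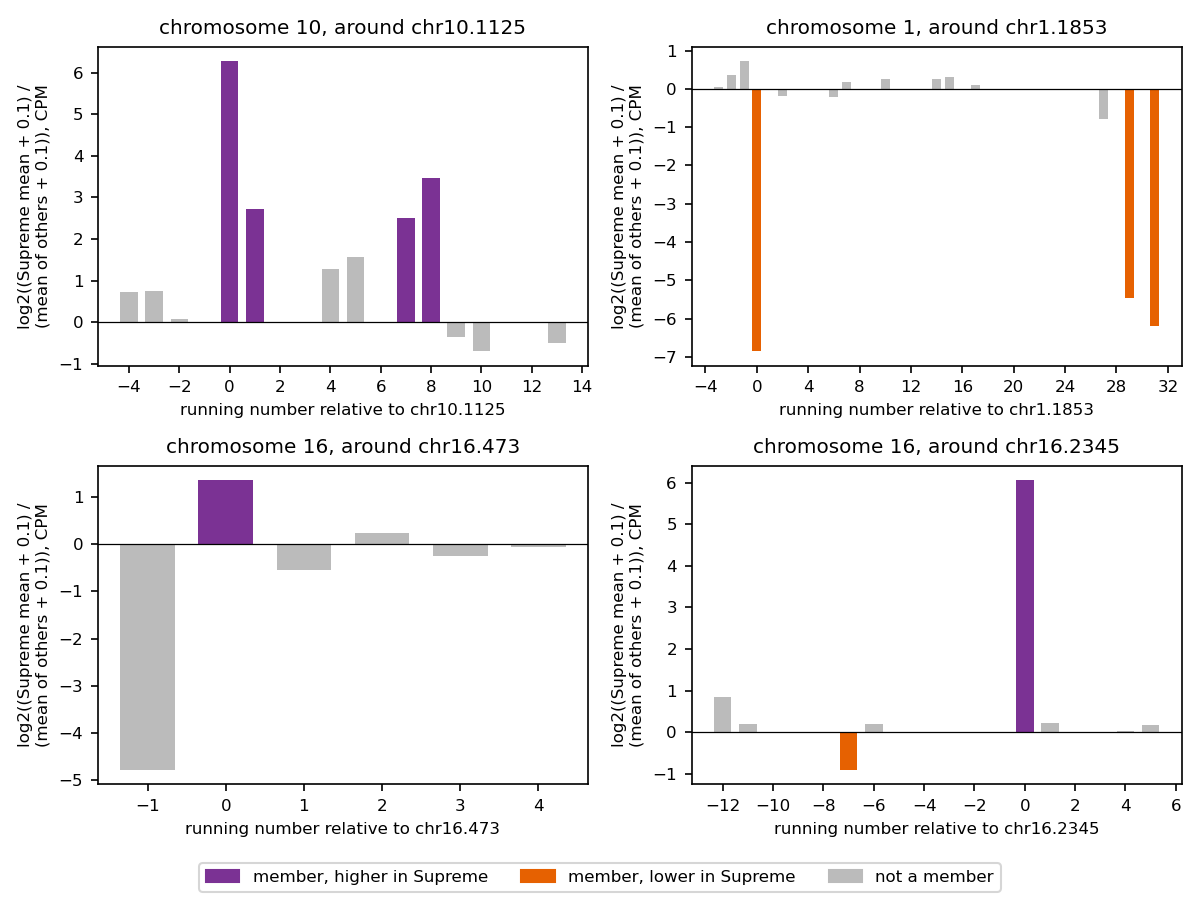
Ratio of mean levels around 4 groups of members, as log2 of the Supreme mean plus 0.1 over the mean of the 24 other libraries plus 0.1 (CPM), against the running number relative to the member in the panel title. Purple bars are high members, orange bars low members and grey bars other gene models with a mean of at least 0.1 CPM in some cultivar. Most grey bars are short beside those of the members. Among the exceptions, a neighbour next to chr16.473 points the other way. Others are chr10.1129 at 1.28, chr10.1130 at 1.58 and chr16.2333 at 0.841, the last beside member chr16.2338 at -0.903.

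Gene models near a member were not chosen by the rule and could be tested. Within 5 running numbers of a high member lay 145 other gene models, of which 117 passed the filter. Of these, edgeR called 8 higher in Supreme (6.84%) and 6 lower (5.13%), against 2.83% higher and 1.31% lower among all gene models (4.14% in all). The contrast averages the other cultivars, so a call, also in the background, need not set Supreme apart from both. For evm.model.chr16.767, called lower, the means were 0.291 CPM in Supreme, 9.92 CPM in Alachua and 0.139 CPM in Granny Val. Called higher were evm.model.chr9.553, at 0.865, 0.570 and 0 CPM, and evm.model.chr1.1275, at 2.08, 1.76 and 1.53 CPM. Around the low members, of 131 tested of 179, 1 was higher (0.763%) and 10 were lower (7.63%). Within 2 running numbers, neighbours of the high set were higher in 4 of 48 cases (8.33%) and lower in 5 (10.4%), and those of the low set were higher in 0 of 55 and lower in 8 (14.5%). Within 10, 6.64% were higher and 4.87% lower around the high set, and 3.35% and 6.32% around the low set. In all 3 windows the share lower in Supreme was above the background around both sets, and so was the share that was higher around the high set. Around the low set the share that was higher lay above it within 10 only. No test was made of these shares.

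Some neighbours went against the member beside them. The gene model before the high member evm.model.chr16.473, evm.model.chr16.472, had 1 count over the 12 Supreme libraries, against 2.96 ± 1.49 CPM in Alachua and 2.43 ± 1.66 CPM in Granny Val (SD, n = 12 each). In pooled counts it was 1591-fold higher in the other libraries, with a counting interval of 285 to 62847 at 95%, and edgeR called it lower in Supreme (adjusted p = 6.3e-07). The member evm.model.chr16.473 had 11.6 ± 2.49 CPM in Supreme, 5.03 ± 2.31 CPM in Alachua and 3.84 ± 1.47 CPM in Granny Val. Likewise evm.model.chr6.860, beside the high member evm.model.chr6.859, had 1 count in Supreme, against 0.506 ± 0.702 CPM in Alachua and 2.61 ± 1.80 CPM in Granny Val (adjusted p = 0.00028, edgeR), a log2 fold change of -8.16. Without the 6 out-of-place libraries it was -6.89 and without Alachua layer 1 replicate 1 it was -7.51, both with an adjusted p of 1, as each left a layer at 0 counts on both sides of the contrast. Among the neighbours that were higher, evm.model.chr4.2501 had 4.66 ± 3.73 CPM in Supreme and 4.08 ± 3.41 CPM in Alachua but 3 counts in all of Granny Val, so its call (adjusted p = 2.7e-06, edgeR) rests on Granny Val. For evm.model.chr9.550 the levels were low, at 0.238 ± 0.354 CPM in Supreme, 0.0175 ± 0.0606 CPM in Alachua and none in Granny Val (adjusted p = 0.0066, edgeR), a log2 fold change of 5.61. It was 3.85 without Supreme layer 2 replicate 2 and 4.42 without Supreme layer 3 replicate 1, where a layer at 0 counts on both sides again gave an adjusted p of 1, and DESeq2 gave no adjusted p.

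Near the low member evm.model.chr1.1443 lay evm.model.chr1.1445, with 4 counts in Supreme against 5.38 ± 4.42 CPM in Alachua and 5.03 ± 4.30 CPM in Granny Val. In pooled counts it was 765-fold higher in the others (adjusted p = 5.5e-10, edgeR), and it was called in all 43 other fits. At evm.model.chr9.358, near evm.model.chr9.355, Supreme had 2 counts, against 0.458 ± 0.394 CPM in Alachua and 0.343 ± 0.505 CPM in Granny Val (adjusted p = 0.0080, edgeR), a log2 fold change of -5.97. It was -5.26 when replicate 3 of Alachua layer 3 was left out, -5.73 when this was replicate 1 of Granny Val layer 1 and -5.12 when it was replicate 3 of Granny Val layer 4, and each of these left a layer at 0 counts on both sides and an adjusted p of 1. The single neighbour of the low set that was higher in Supreme was evm.model.chr19.47, with 2.31 ± 2.16 CPM in Supreme, 0.0689 ± 0.132 CPM in Alachua and 0.544 ± 0.563 CPM in Granny Val (log2 fold change 3.82, adjusted p = 0.014, edgeR). Without the 6 out-of-place libraries its log2 fold change was 3.53 (adjusted p = 0.113). Of the 247 neighbours tested, 21 had a group at 0 counts both in Supreme and in another cultivar and could not be called, among 2164 such gene models in all.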

How the data were processed

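The deposited values are whole-number counts per gene model, 1 table for each of the 36 libraries. Per the labels' protocols, polyadenylated RNA was made into libraries with a directional kit. The genome build and whether counting used the strand: not given in the sources used here. The submitters' processing notes name STAR, cutadapt, HTSeq 0.11.2, DESeq2 and SAMtools, without roles or order. The 5 special lines of each table were left out of totals and tests. Reads outside gene models came to 7.733% to 14.56% of a library, ambiguous reads to 1.06% to 1.417% and reads without a unique position to 2.356% to 3.326%.

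Computed here were CPM by library total and log2 fold changes with edgeR 4.0.16 in R 4.3.3 (TMM, filterByExpr by group, quasi-likelihood F test, 12 group means, all 36 libraries, 24 residual degrees of freedom), adjusted by Benjamini-Hochberg over 19241 gene models. Standard errors are the log2 fold change divided by the root of the F value. DESeq2 1.42.0 and other settings were alternatives. Tables and ratios used Python 3.11.15. A floor of 3 counts and 95% intervals cover counting error only. Members and lists were chosen with earlier results of these data known. Named with values were, per set, the 8 largest ratios, the 2 highest levels, the 30th member, up to 2 called members per direction and contrast, and up to 2 neighbours per direction. Others were named by position or kind after their values were seen. No label says that replicates were separate plants, and p-values thus cover the spread among these libraries, which may be technical. Layer scores used 307 and 168 gene models that separated layers in Granny Val. The rule and the fits were tested on simulated data.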

Additional observations from a re-analysis of the deposited data

How the results depend on the processing

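Of 7 counts of called gene models, the value stayed within 1.5 times under most of the 44 or 45 alternatives, as detailed here, and no called value changed sign. In the high set, layers 1 and 2 minus layers 3 and 4 of Supreme gave 2 calls instead of 0 when only the Supreme groups were fitted, and Alachua minus Granny Val gave 1 instead of 2 with only those groups, 1 without the 6 out-of-place libraries and 5 with DESeq2. With no fold minimum, the low set gave 1 call instead of 0 for layer 1 minus layer 2, 6 instead of 2 for Alachua minus Granny Val, and the neighbours 38 instead of 25. The neighbours gave 38 with DESeq2, 52 within 10 running numbers and 17 within 2. Leaving out 1 library at a time gave 0 calls throughout for both layer contrasts of the high set, 1 to 3 for its Alachua minus Granny Val contrast, 2 throughout for that of the low set, 0 to 1 for layer 1 minus layer 2 and 0 to 2 for layers 1 and 2 minus layers 3 and 4 of the low set, and 21 to 28 for the neighbours. Without Granny Val layer 1 replicate 3 the low set had 1 call for layer 1 minus layer 2 and 2 for outer minus inner layers. The causes were not tested.

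Same-numbered libraries had correlated deviations over 0.1 in 10 of 54 pairs of layers and 9 of 36 pairs of cultivars. All 3 numbers did so for layers 2 and 3 of Granny Val (0.259 to 0.309) and for no other pair of groups, so the numbers were not taken to pair libraries across the design. In both of these layers, replicates 1 and 2 had library names without a number and replicate 3 had a name with one. There the replicate number cannot be told apart from the kind of name. With the replicate number as a block, calls were 0 and 0 for the layer contrasts of the high set, 2 for its Alachua minus Granny Val contrast, 1 for outer minus inner layers, 0 for layer 1 minus layer 2 and 2 for Alachua minus Granny Val in the low set, and 24 for the neighbours. The rule kept 29 of the 30 high and 29 of the 30 low members with 1 CPM added in place of 0.1, 28 and 27 with TMM scaling, 25 and 19 with medians of replicates, 20 and 19 with a minimum of 5 CPM, and 25 to 30 of each without single libraries. The members' direction between Supreme and the others turned in 0 of 2640 pairs of a member and a fit. The rule chose the members by this direction in the same libraries, so the count is a description.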
